A study of Homo sapiens with 8 samples.

Results

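The 10 genes described here encode the SMN complex and its close partner STRAP: SMN1, SMN2, GEMIN2, GEMIN4, GEMIN5, GEMIN6, GEMIN7, GEMIN8, DDX20 (also called Gemin3) and STRAP (also called unrip). They were chosen by a rule that uses names only, from the 60240 genes of the deposited expression table. The choice was made with earlier results of these data known, so shares of all genes set beside their counts are descriptions. All 10 passed the filter on low values (a mean of at least 10). RNA was measured in HL-60, an established human promyelocytic leukaemia line described as wild type, in 4 groups of 2 libraries. The combination group received decitabine and RG3039 together, the decitabine group decitabine alone, the RG3039 group RG3039 alone, and the DMSO group the solvent. Decitabine, a deoxycytidine analogue that inhibits DNA methyltransferases, was given 3 times, once a day, at 100 nM. RG3039 was given once at the start at 2 µM, and RNA was taken at 72 h. The duplicates of a group came from duplicate wells of 1 cell line, so p-values measure the spread between wells.

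The SMN complex assembles the small nuclear ribonucleoproteins (snRNPs) of the spliceosome. In the cytoplasm it places a ring of Sm proteins on each small nuclear RNA (snRNA), after which the cap is further methylated and the particle is imported into the nucleus, where SMN gathers in Cajal bodies. SMN1 and SMN2 are near-identical genes in a duplicated region of chromosome 5 (SMN1 at chr5:70925030-70953942 and SMN2 at chr5:70049612-70078522 on GRCh38, plus strand; all gene positions here are from GENCODE 29). Loss of SMN1 causes spinal muscular atrophy, and SMN2 makes mostly a shortened protein because its transcript tends to skip the exon known as exon 7. RG3039 belongs to a class of quinazoline inhibitors of the decapping scavenger DcpS that was developed for spinal muscular atrophy with the aim of raising SMN2 output. The 4 treatments allow the levels of these genes to be compared between each drug, both drugs and the solvent.

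The transcripts of SMN1 and SMN2 can hardly be told apart by the reads used here, and the exon that carries the best-known difference is shown for this reason. Both main transcripts were 1536 bases long in GENCODE 29 and differed at 2 bases. The first, C6T, counted from the first base of the exon and written as the SMN1 base, the position and the SMN2 base, is the capital letter in the coding part of the exon below (exon 8 of 9 in the annotation's count), given up to and including the stop codon on GRCh38, plus strand (SMN1 at chr5:70951941-70951991, SMN2 at chr5:70076521-70076571).
SMN1: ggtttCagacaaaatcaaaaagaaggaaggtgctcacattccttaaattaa
SMN2: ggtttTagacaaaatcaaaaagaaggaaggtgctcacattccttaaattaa
C6T lies 623 bases from the 3′ end of the transcript, and the other difference, G236A, lies after the stop codon in the last exon, 339 bases from the end. The libraries (QuantSeq 3′ mRNA-Seq FWD) count tags near the 3′ end with single reads of 50 bases. Within the last 500 bases, 401 of 451 possible read positions (88.9%) were identical between both genes. The 3′ tags therefore do not report on the skipping of exon 7, and the rows SMN1 and SMN2 hold values that depend on how shared reads were divided.

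In the deposited values, which are read counts normalised for library size by the authors, the row SMN1 stood at 345 and 278 in combination cells, 605 and 203 in decitabine cells, 763 and 407 in RG3039 cells and 754 and 1019.5 in DMSO cells. The row SMN2 stood at 56.0 and 174 in combination cells, 209.5 and 351 in decitabine cells, 107 and 288 in RG3039 cells and 209 and 278 in DMSO cells. The duplicates of a group differed widely in both rows, and in each of the 3 drug groups, but not in DMSO cells, the replicate with the higher SMN1 value had the lower SMN2 value. SMN2 made up 14.0% and 38.5% of the sum of both rows in combination cells, 25.7% and 63.3% in decitabine cells, 12.3% and 41.4% in RG3039 cells and 21.7% and 21.4% in DMSO cells. The share differed more between the duplicates of each drug group than between the DMSO duplicates. Across the 8 libraries the correlation of SMN1 with SMN2 on the log2(value + 1) scale was -0.02, a description over libraries that share 4 treatments.

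The sum of both rows does not depend on how reads were divided between them, though it would lack shared reads that were left uncounted. It was 401 and 452 in combination cells, 814 and 555 in decitabine cells, 870.1 and 695 in RG3039 cells and 963 and 1297 in DMSO cells. Both combination libraries lay below the 6 others, and both libraries of each single drug lay below both DMSO libraries. The summed SMN level fell in combination cells to 0.381 of that in DMSO cells (log2 fold change -1.39 ± 0.24, SE; limma, adjusted p = 0.00329, n = 2 each). In such bulk samples fewer cells of a type and less RNA per cell cannot be told apart. All log2 fold changes here are on the log2(value + 1) scale, and adjusted p-values are by Benjamini-Hochberg over 17534 genes within a comparison, with a call at 0.05. The call of the sum held without any single library, where the adjusted p reached at most 0.0311. Of the rows taken singly, SMN1 was called lower (-1.50 ± 0.47, adjusted p = 0.0441) and SMN2 had -1.28 ± 0.58 (adjusted p = 0.146). The SMN1 call was lost without combination replicate 1 (adjusted p = 0.117), combination replicate 2 (0.177), DMSO replicate 1 (0.0811) or DMSO replicate 2 (0.195). With all libraries kept it was also lost under upper-quartile scaling (adjusted p = 0.0632), quantile normalization (0.0541), no filter on low values (0.0741), eBayes without the trend (0.133) and robust estimates (0.0760). SMN2 was called without combination replicate 2 (adjusted p = 0.04999).

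**Figure D1:**
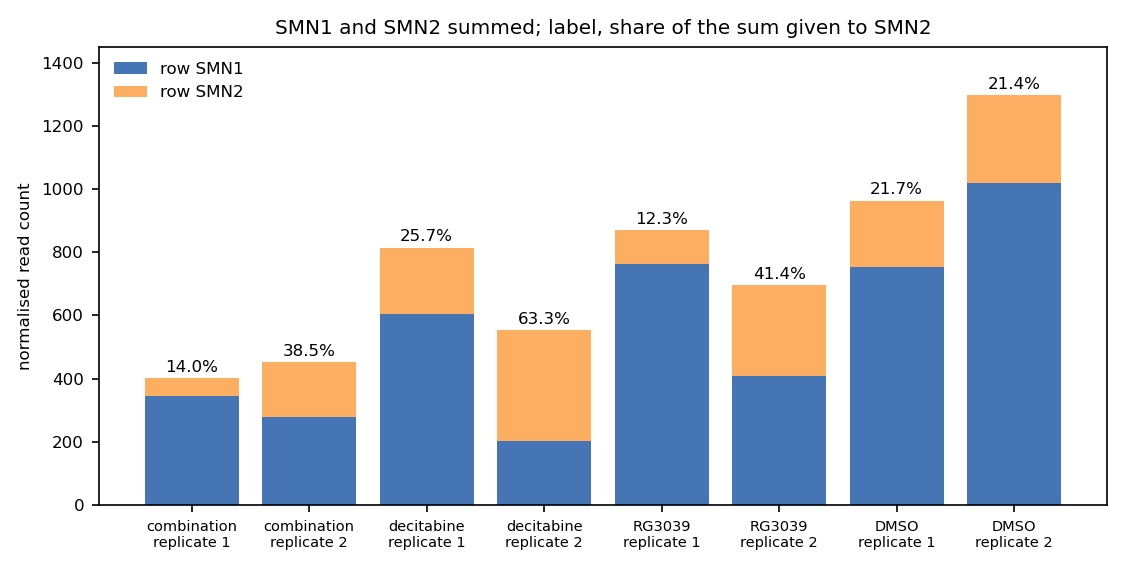
Stacked bars of the normalised read count of the rows SMN1 (blue) and SMN2 (orange) in each of the 8 libraries, with the share of SMN2 in the sum as a percentage above each bar. The summed level stays at 401 and 452 in the combination libraries, against 963 and 1297 in the DMSO libraries, while the share given to SMN2 runs from 12.3% to 63.3%.

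RG3039 cells showed no called change in the summed SMN level against DMSO cells (log2 fold change -0.52 ± 0.24, limma, adjusted p = 0.237), with a 95% interval of -1.07 to 0.02. The SMN2 row alone had -0.45 ± 0.58 (95% interval -1.76 to 0.85, adjusted p = 0.698), an interval that spans changes in both directions, and its sign turned without RG3039 replicate 1 (0.25). In decitabine cells the sum had -0.73 ± 0.24 against DMSO cells (adjusted p = 0.155), with -1.32 ± 0.47 for SMN1 (0.181) and 0.17 ± 0.58 for SMN2 (0.913). Neither single drug gave a called change in SMN. The fold changes of the 3 treatments share the same DMSO libraries.

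Several genes of the complex were lower in combination than in DMSO cells. Of the 10 genes, 4 fell (SMN1, GEMIN4, GEMIN5 and STRAP; limma) and none rose, a count that was 2 without DMSO replicate 2. All 10 log2 fold changes were below 0, with a median of -1.03 beside 0.04 over all genes tested. The share of all genes called lower in this comparison was 12.7%, and 18.9% among the 10933 genes with a mean of at least 100. Another 3 genes had an unadjusted p under 0.05 (7 in all). The share of all genes at that unadjusted threshold was not counted in any comparison, so such counts are descriptions. Both combination libraries lay below both DMSO libraries for 9 of the 10 genes, GEMIN7 being the exception, against 30.6% of all genes and 39.4% of those with a mean of at least 100. The 10 values summed to 4411 and 4653 in combination cells, 6065 and 6105 in decitabine cells, 7463 and 6896 in RG3039 cells and 8043 and 9967 in DMSO cells. The groups did not overlap in this sum, the combination being lowest and DMSO highest.

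**Figure D2:**
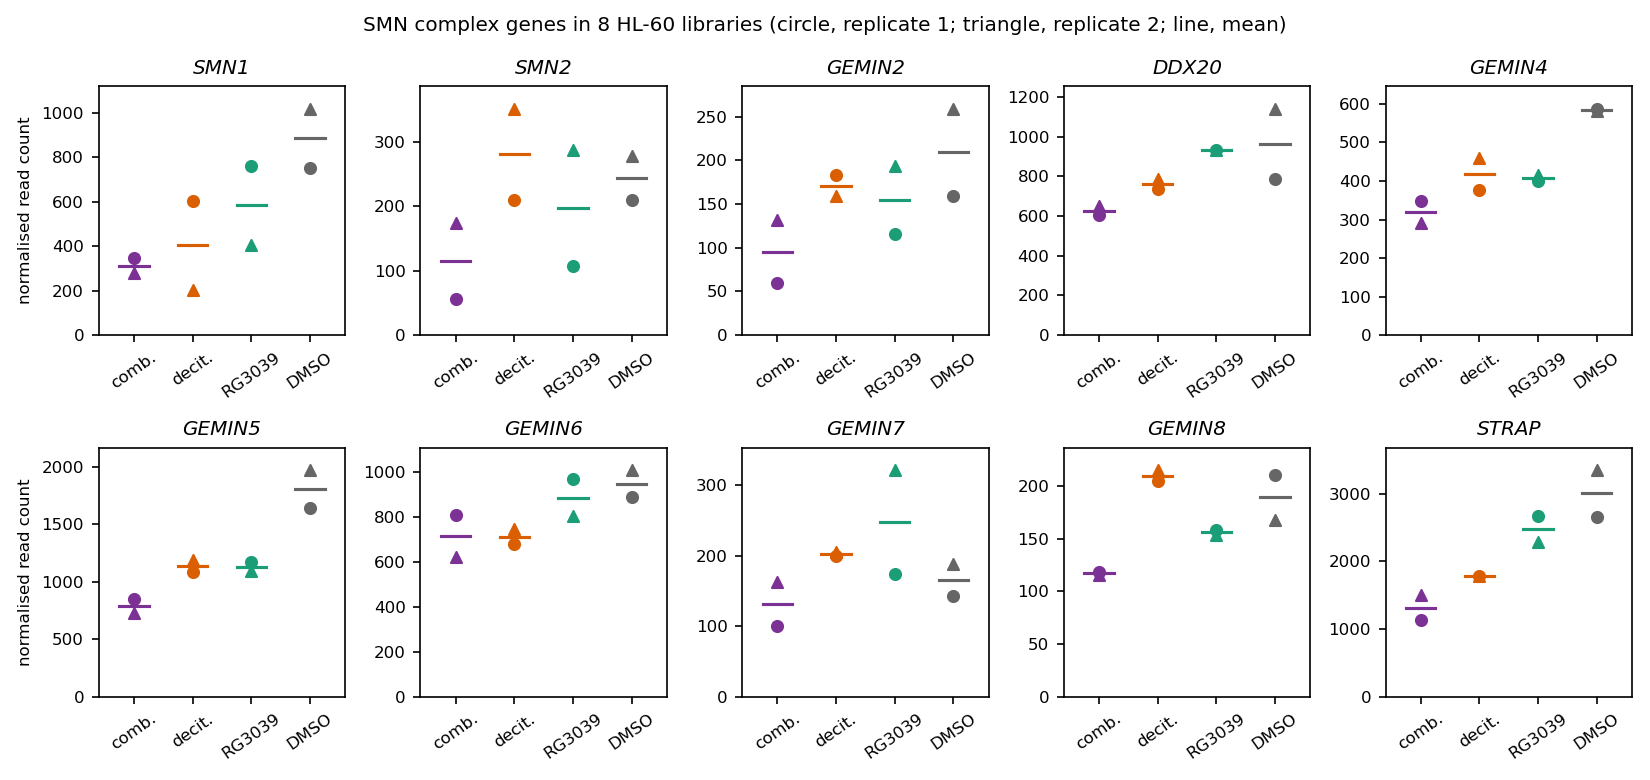
Normalised read count of each of the 10 genes (vertical axis, from 0, its own scale per gene) in combination, decitabine, RG3039 and DMSO cells; circles are replicate 1, triangles replicate 2 and lines the mean of 2. GEMIN5 and STRAP show combination groups well below the DMSO groups, with 728 to 845 in combination against 1638 to 1969.9 in DMSO cells for GEMIN5, while SMN1, SMN2 and GEMIN7 show wide duplicates.

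GEMIN5 (chr5:154887416-154938209, minus strand), the subunit that recognises the snRNA and its cap, changed with the smallest p of the 10 genes. Its level was 845 and 728 in combination cells, 1085 and 1188 in decitabine cells, 1169 and 1089 in RG3039 cells and 1638 and 1969.9 in DMSO cells. All 6 libraries from drug-treated cells lay below both DMSO libraries, and both combination libraries lay below those of the single drugs. GEMIN5 fell in combination cells to 0.437 of the DMSO level (log2 fold change -1.19 ± 0.17, limma, adjusted p = 0.00118) and kept this call in all 18 alternative settings, including without each library in turn (adjusted p at most 0.0154). It also fell in RG3039 cells (-0.67 ± 0.17, adjusted p = 0.0424), the only call among the 10 genes in that comparison, where 3.59% of all genes were called lower. That call was lost without RG3039 replicate 1 (adjusted p = 0.134), RG3039 replicate 2 (0.195), DMSO replicate 2 (0.194), combination replicate 1 (0.0663) or 2 (0.0660), and decitabine replicate 1 (0.0566) or 2 (0.0576). In decitabine cells GEMIN5 had nearly the same estimate (-0.66 ± 0.17, adjusted p = 0.0808) and was not called.

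GEMIN4 (chr17:744414-753999, minus strand) pairs within the complex with DDX20 (chr1:111755245-111768016, plus strand), a DEAD-box RNA helicase. GEMIN4 stood at 349 and 291 in combination cells, 378 and 460.4 in decitabine cells, 400.4 and 415 in RG3039 cells and 588 and 581 in DMSO cells. The DMSO duplicates were the highest, and each drug group lay below them. GEMIN4 fell in combination cells (log2 fold change -0.87 ± 0.21, limma, adjusted p = 0.0133), a call that was lost without combination replicate 2 (0.0928) or DMSO replicate 2 (0.0532). Its estimates for the single drugs against DMSO were -0.49 ± 0.21 for decitabine (adjusted p = 0.257) and -0.52 ± 0.21 for RG3039 (0.166). DDX20 stood at 603 and 650.1 in combination cells, 739 and 785 in decitabine cells, 934 and 934 in RG3039 cells and 788 and 1142 in DMSO cells. The combination duplicates were the lowest and the RG3039 duplicates lay between the DMSO ones. DDX20 had -0.60 ± 0.20 in combination against DMSO cells (adjusted p = 0.0586) and was called without DMSO replicate 1 (0.0178). For decitabine it had -0.32 ± 0.20 (0.448). Its estimate for RG3039 was -0.02 ± 0.20 (adjusted p = 0.962), and its sign turned under both other scalings (upper-quartile 0.02, quantile 0.03) and without DMSO replicate 2 (0.24).

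STRAP (chr12:15882391-15903478, plus strand) is a WD-repeat protein that binds the complex in the cytoplasm and is also known as an inhibitor of TGF-β signalling. It stood at 1126 and 1503 in combination cells, 1784 and 1790.4 in decitabine cells, 2671 and 2292 in RG3039 cells and 2663 and 3351 in DMSO cells. The combination duplicates were the lowest, the decitabine duplicates came next, and the RG3039 and DMSO ranges overlapped by a narrow margin. STRAP fell in combination cells to 0.436 of the DMSO level (log2 fold change -1.20 ± 0.19, limma, adjusted p = 0.00192) and kept this call in all 18 alternative settings. For decitabine against DMSO it had -0.74 ± 0.19 (adjusted p = 0.0775), and for RG3039 -0.27 ± 0.19 (0.435).

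GEMIN2 (chr14:39114223-39136973, plus strand), which binds SMN and holds the Sm proteins before they close on the RNA, stood at 59.1 and 131 in combination cells, 183 and 159 in decitabine cells, 115 and 194 in RG3039 cells and 159 and 259 in DMSO cells. Both combination duplicates were below the DMSO ones, and the duplicates lay far apart in every group but decitabine. The estimate against DMSO was -1.19 ± 0.44 (limma, adjusted p = 0.0774), as far from 0 as that of GEMIN5 but with a wider error, and GEMIN2 was called without combination replicate 2 (0.0400). For the single drugs it had -0.25 ± 0.44 (decitabine, adjusted p = 0.806) and -0.44 ± 0.44 (RG3039, 0.609).

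GEMIN6 (chr2:38751534-38785000, plus strand) and GEMIN7 (chr19:45079195-45091524, plus strand) form a dimer with Sm-like folds, and GEMIN8 (chrX:14008279-14029893, minus strand) joins that dimer to SMN. GEMIN6 stood at 809 and 620.0 in combination cells, 678 and 747 in decitabine cells, 969.9 and 803 in RG3039 cells and 889 and 1009 in DMSO cells. Its groups lay close together, and the estimate against DMSO was -0.42 ± 0.20 for the combination (limma, adjusted p = 0.160), -0.41 ± 0.20 for decitabine (0.314) and -0.10 ± 0.20 for RG3039 (0.811). GEMIN8 stood at 119 and 116 in combination cells, 205 and 215 in decitabine cells, 159 and 154 in RG3039 cells and 211 and 168 in DMSO cells. Its combination duplicates agreed closely and were the lowest of the 8 libraries, with -0.68 ± 0.26 against DMSO cells (adjusted p = 0.0895). Under quantile normalization it was called lower in that comparison (-0.83, limma, adjusted p = 0.0432). For the single drugs GEMIN8 had 0.16 ± 0.26 (decitabine, adjusted p = 0.796) and -0.27 ± 0.26 (RG3039, 0.598). GEMIN7 stood at 100.1 and 162 in combination cells, 199 and 205 in decitabine cells, 174 and 322 in RG3039 cells and 143 and 189 in DMSO cells. It was the only one of the 10 genes whose combination and DMSO values overlapped (-0.36 ± 0.36, adjusted p = 0.524), and the only one with an estimate above 0 for RG3039 (0.53 ± 0.36, adjusted p = 0.437). For decitabine GEMIN7 had 0.30 ± 0.36 (adjusted p = 0.716). The annotated spans of MARK4 and PPP1R37 overlap that of GEMIN7 on the same strand (values 298 to 511 and 248 to 521 over the libraries). GEMIN7-AS1 overlaps it on the other strand (8.04 to 59.7). Whether reads of these genes were counted for GEMIN7 was not tested, which leaves its values uncertain.

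**Figure D3:**
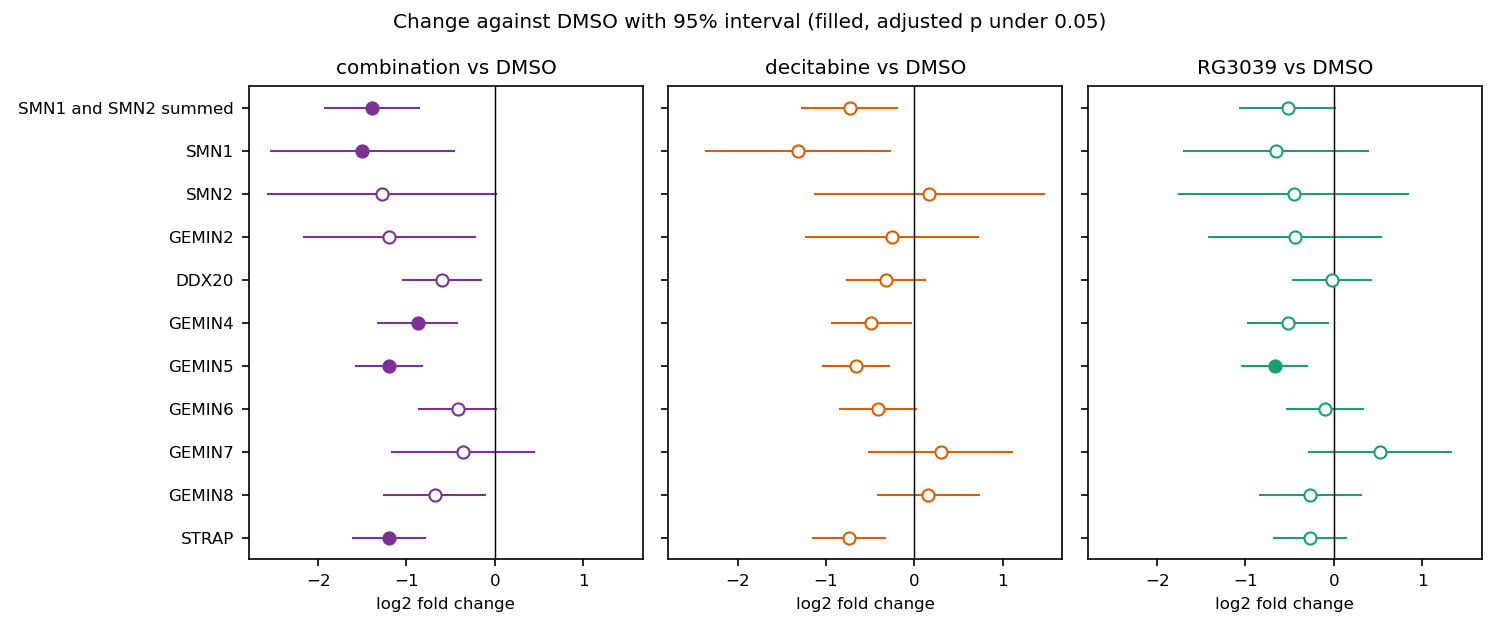
Log2 fold change against DMSO (horizontal axis, with 95% interval) of the summed SMN level and each of the 10 genes for the combination, decitabine and RG3039; filled points have an adjusted p under 0.05. In the combination all estimates lie below 0 and the sum, SMN1, GEMIN4, GEMIN5 and STRAP are filled, while GEMIN5 alone is filled for RG3039 and no point for decitabine.

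Decitabine alone gave no call among the 10 genes with limma, where 2.14% of all genes were called in either direction. At an unadjusted p under 0.05 there were 4, without a share of all genes to set beside them. The median log2 fold change was -0.36 beside 0.01 over all genes. Both decitabine libraries lay below both DMSO libraries for 6 genes (SMN1, DDX20, GEMIN4, GEMIN5, GEMIN6 and STRAP), against 23.1% of all genes. The decitabine libraries lay above both for GEMIN7, without a share of all genes to set beside it, and overlapped for 3 genes. RG3039 alone gave the 1 call of GEMIN5, with a median of -0.36 beside -0.0025 over all genes. Both RG3039 libraries lay below both DMSO libraries for 3 genes (GEMIN4, GEMIN5 and GEMIN8), against 26.1% of all genes, and overlapped for the other 7. For neither single drug is such a share given among genes with a mean of at least 100.

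Set against the single drugs, the combination was lower in all 10 estimates but rarely past the threshold. Against decitabine none of the 10 genes was called (limma, 7.33% of all genes called in either direction). At an unadjusted p under 0.05 there were 4, again without a share of all genes, and the median log2 fold change was -0.50. GEMIN8 had -0.83 ± 0.26 (adjusted p = 0.0858) and the summed SMN level -0.66 ± 0.24 (0.140). Against RG3039 STRAP fell (-0.93 ± 0.19, adjusted p = 0.0388), the 1 call of 10 where 0.787% of all genes were called lower, and the median was -0.67. That call was lost without combination replicate 1 (adjusted p = 0.274) or 2 (0.0932), decitabine replicate 1 (0.0638) or 2 (0.0657), and RG3039 replicate 1 (0.266) or 2 (0.0828). The summed SMN level had -0.87 ± 0.24 against RG3039 cells (adjusted p = 0.0974).

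Decitabine and RG3039 cells did not differ past the threshold in any of the 10 genes (limma, 4.6% of all genes called), and STRAP, with -0.47 ± 0.19 in decitabine against RG3039 cells (adjusted p = 0.212), was the 1 with an unadjusted p under 0.05. A departure of the combination from the sum of both single changes, tested as the interaction, was called for none of the 10 genes and for 0 of all genes. On the log2 scale the summed SMN level had a combination change of -1.39 and single changes that add to -1.26, with an interaction of -0.14 ± 0.34 (adjusted p = 0.975). GEMIN5 had -1.19 beside a sum of -1.33, and STRAP -1.20 beside -1.01. GEMIN7 was the 1 gene with an unadjusted p under 0.05 for the interaction (-1.18 ± 0.52, limma, adjusted p = 0.859). The standard error of the interaction had a median of 0.456 over all genes. Among the 10 genes it ran from 0.241 (GEMIN5) to 0.822 (SMN2). Departures no larger than a gene's own standard error could not be told from 0 in this design.

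The partners of the complex in snRNP assembly were read from 6 lists with 48 genes, all tested: Sm core proteins, the methylosome that methylates them, snRNA export, cap and import factors, Cajal body proteins, proteins particular to single snRNPs, and splicing regulators of SMN exon 7. In combination cells 23 of the 48 fell against DMSO cells and none rose (limma). The median log2 fold change was -0.57 beside 0.04 over all genes. The background called lower was 12.7% of all genes, and 18.9% of those with a mean of at least 100. The lists, too, were chosen with earlier results of these data known, so counts beside these shares are descriptions. Of the 23 calls, 10 held in all 18 alternative settings, and the called genes described next are from these unless stated. The count of calls was 13 without combination replicate 2 and 15 without combination replicate 1. Decitabine against DMSO had no call (4 without DMSO replicate 1), and RG3039 against DMSO had 2 of 48, CLNS1A and TOE1, both lower, a share near the 3.59% of all genes called lower. That count was 1 without RG3039 replicate 2 or DMSO replicate 2 and 7 without DMSO replicate 1. The combination had 5 calls against decitabine cells. SNRPF, WDR77, RIOK1 and RAN were lower, as were 3.39% of all genes, and SNRPB2 was higher, as were 3.94%. Against RG3039 cells the combination had 2 calls (RAN and NOLC1 lower, where 0.787% of all genes were called lower). Both counts were 0 without either combination replicate or decitabine replicate 1. Without decitabine replicate 2 they were 2 and 0, without RG3039 replicate 1 they were 3 and 0, and without RG3039 replicate 2 they were 3 and 1. SNRPB2 was the 1 call in decitabine against RG3039 cells, where it was lower as were 1.92% of all genes, and there was none without decitabine replicate 1 or either RG3039 replicate.

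Of the 8 Sm core proteins, which form the ring that the SMN complex places on snRNA, 7 fell in combination cells. In that comparison with DMSO cells 12.7% of all genes were called lower, and 18.9% of those with a mean of at least 100. SNRPF stood at 1979 and 2023 in combination cells, 6323 and 3697 in decitabine cells, 7200.1 and 3834 in RG3039 cells and 7022 and 6014 in DMSO cells. Its combination duplicates lay far below the other 6 libraries (-1.70 ± 0.30 against DMSO, adjusted p = 0.00370). SNRPD3 had -1.04 ± 0.19 (adjusted p = 0.00367). SNRPN, the neuronal form of the ring's B subunit, was the 1 Sm gene not called (-0.12 ± 0.21, adjusted p = 0.743), with a sign that turned under quantile normalization (0.02), without combination replicate 1 (0.07) and without DMSO replicate 2 (0.16).

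Of the 6 methylosome genes, 4 fell in combination against DMSO cells, beside the same 12.7% and 18.9%. CLNS1A, the chaperone that carries Sm proteins to the methyltransferase, stood at 2550 and 2904 in combination cells, 4674 and 3707 in decitabine cells, 2908 and 2345 in RG3039 cells and 7062 and 6446 in DMSO cells. The RG3039 and combination ranges overlapped, and both lay below decitabine and DMSO cells. CLNS1A fell in combination cells (-1.31 ± 0.17, limma, adjusted p = 0.000765) and in RG3039 cells (-1.37 ± 0.17, adjusted p = 0.00172), and both calls held in all 18 alternative settings. WDR77, the partner of the methyltransferase PRMT5, had -1.31 ± 0.21 (adjusted p = 0.00207) in combination cells. RIOK1, an adaptor of the same enzyme, had -0.98 ± 0.15 (0.00187).

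In the other 4 lists a smaller share of the genes was called in combination against DMSO cells. Of all genes 12.7% were called lower there, and 18.9% of those with a mean of at least 100. The count of 2 of 9 export, cap and import genes was near the latter share. Of 9 export, cap and import genes 2 fell, among them RAN, the GTPase that gives nuclear transport its direction (-1.16 ± 0.14, limma, adjusted p = 0.000485), while the import receptor KPNB1 had -0.21 ± 0.15 (0.328). Of 7 Cajal body genes 3 fell, among them TOE1, a deadenylase that trims snRNA ends (-1.47 ± 0.23, adjusted p = 0.00183), and NOLC1, a nucleolar and Cajal body phosphoprotein (-1.11 ± 0.15, 0.000995). Of 8 proteins particular to single snRNPs 3 fell, among them SNRPA1 of U2 (-1.81 ± 0.30, adjusted p = 0.00247) and SNRNP70 of U1 (-1.06 ± 0.17, 0.00193), while SNRPB2 of U2 had 0.23 ± 0.15 (0.331). Of 10 regulators of exon 7 splicing 4 fell, and none of these 4 calls held in all 18 alternatives. KHDRBS1 (Sam68), known to favour exon 7 skipping, had -0.77 ± 0.17 (adjusted p = 0.00866) and was not called without combination replicate 1 (0.0642).

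**Figure D4:**
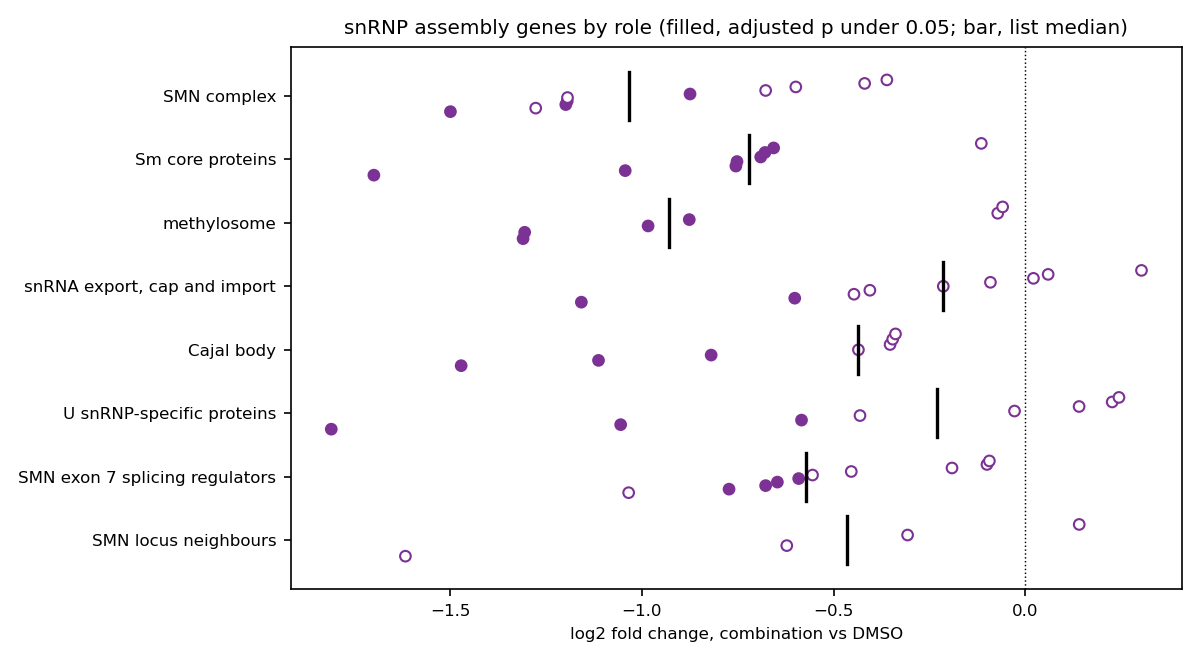
Log2 fold change in combination against DMSO cells (horizontal axis) of each gene of the SMN complex, the 6 assembly lists and the 4 neighbours of the SMN locus; filled points have an adjusted p under 0.05 and the bar is the list's median. Filled points lie to the left of 0 in every list that has any, 7 of 8 among Sm core proteins and 4 of 10 in the SMN complex, and there are none among the locus neighbours.

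The neighbours of SMN1 and SMN2 in the duplicated region of chromosome 5 showed no called change in combination against DMSO cells with limma. SERF1A had -0.31 ± 0.32 (adjusted p = 0.531), GTF2H2 -0.62 ± 0.56 (0.470) and NAIP 0.14 ± 0.37 (0.826). SERF1B, at 17.2 and 9.87 in combination cells and 59.2 and 29.9 in DMSO cells, had -1.62 ± 1.37 (0.440) and was listed at 0 in RG3039 replicate 1. The sign of NAIP turned under quantile normalization (-0.17) and without combination replicate 2 (-0.10). These genes also have copies in the region, so their division of reads is uncertain too.

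Across the 8 libraries the summed SMN level followed STRAP (Pearson r = 0.933 on log2(value + 1)) and GEMIN5 (0.896) most closely among the complex genes. Between single genes the highest values were 0.967 for GEMIN4 and GEMIN5, 0.920 for DDX20 and STRAP and 0.898 for SMN2 and GEMIN2. The SMN2 row depends on how shared reads were divided. Among 15438 genes with a mean of at least 20, those most like the summed SMN level were LRPPRC (0.994), TOMM20 (0.994) and ANXA7 (0.989), and those most like GEMIN5 were AP005263.1 (0.994), DCAF13 (0.994) and BZW2 (0.991). With 8 libraries that share 4 treatments these values are descriptions.

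The promoters of the 3 Gemin and partner genes called in combination against DMSO cells are shown. These genes were picked by that call, and shared regulation was not tested. The promoters are from RefSeq (GRCh38.p14), from 250 bases before to 50 after the start, on the gene's strand. Capitals mark matches to the motifs searched, as read on either strand. GEMIN5 lies at chr5:154938162-154938461 on the minus strand, GEMIN4 at chr17:752215-752514 on the minus strand and STRAP at chr12:15882137-15882436 on the plus strand.
GEMIN5: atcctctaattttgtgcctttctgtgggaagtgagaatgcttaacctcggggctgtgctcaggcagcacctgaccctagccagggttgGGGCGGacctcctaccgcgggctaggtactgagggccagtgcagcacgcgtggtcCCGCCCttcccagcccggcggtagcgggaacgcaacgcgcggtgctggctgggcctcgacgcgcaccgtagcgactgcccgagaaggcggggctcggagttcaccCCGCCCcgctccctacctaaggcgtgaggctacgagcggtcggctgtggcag
GEMIN4: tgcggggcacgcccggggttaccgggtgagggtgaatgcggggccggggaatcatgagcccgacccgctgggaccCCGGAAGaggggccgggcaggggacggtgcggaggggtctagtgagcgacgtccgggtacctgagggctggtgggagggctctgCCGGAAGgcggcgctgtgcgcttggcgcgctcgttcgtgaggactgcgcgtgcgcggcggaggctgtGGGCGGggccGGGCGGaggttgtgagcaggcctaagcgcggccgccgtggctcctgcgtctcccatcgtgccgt
STRAP: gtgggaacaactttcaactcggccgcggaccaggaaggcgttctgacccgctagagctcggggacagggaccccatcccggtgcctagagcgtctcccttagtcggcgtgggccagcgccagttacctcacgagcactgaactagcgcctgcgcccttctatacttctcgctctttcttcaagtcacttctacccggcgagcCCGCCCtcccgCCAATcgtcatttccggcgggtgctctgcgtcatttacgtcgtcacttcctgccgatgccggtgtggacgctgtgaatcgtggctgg
They held 28 CpG (GEMIN5), 38 (GEMIN4) and 29 (STRAP), against a median of 14 over all promoters. The genes not called in combination cells were also above that median, with 41 in GEMIN8, 21 in DDX20, 18 in GEMIN2 and 16 in GEMIN6, except 1 of the 3 starts listed for GEMIN7 (9, 24 and 29). The table held 8 of the 10 genes. The GC box GGGCGG was found in all 3 shown and in 5 of the 8 genes, against 45.0% of all 35116 promoters. The ETS motif CCGGAAG was found in GEMIN4 and GEMIN8 (10.3% of all promoters), CCAAT in STRAP, GEMIN2 and DDX20 (34.6%), the E-box CACGTG in GEMIN7 and GEMIN8 (7.26%), the palindromic NRF1 motif in GEMIN2 (1.24%) and the CRE motif TGACGTCA in none (1.85%). These matches describe letters and not binding.

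The estimated depth was 20700000 to 40900000 reads a library, the lowest value of the 10 genes stood for about 67.2 reads (SMN2, combination replicate 1), and mitochondrial genes took 10.4% to 12.6% of the values. Myeloid markers (8 of 8 tested) summed to 91351 and 102582 in combination cells, 161067 and 201549 in decitabine cells, 106746 and 123019 in RG3039 cells and 161296 and 198299 in DMSO cells, so the label HL-60 was met by high MPO and ELANE in every library. MPO, PRTN3 and CTSG were called lower and CEBPE higher in combination against DMSO cells. Of 9 markers of other cell types, 4 were tested, and all 9 summed to 147 and 242 in combination cells, 105 and 118 in decitabine cells, 67.6 and 60.4 in RG3039 cells and 103 and 57.6 in DMSO cells, with MS4A1 and HBB at 0 in all 8 libraries. CD3E was called higher in combination cells (41.6 and 94.1, against 3.03 and 1.51 in DMSO cells). Between combination and DMSO cells the myeloid sums were lower, as were the SMN complex values, while CD3E was higher. In decitabine cells the myeloid sums, made up mostly of MPO, overlapped those of DMSO cells. Both decitabine libraries lay above both DMSO libraries for CEBPE, CTSG, AZU1 and PRTN3, below for CD33, and overlapped for MPO, ELANE and SPI1. Of the 8 myeloid markers 2 were called higher (limma) and none lower, where 2.14% of all genes were called in either direction. The part of these markers in the result was not tested.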

How the data were processed

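Libraries of polyadenylated RNA from HL-60 cells were sequenced on an Illumina HiSeq, per the labels' protocols. The values deposited by the authors are a signal per gene, namely read counts scaled for library size. The submitters' processing notes name Salmon 1.2.1, STAR, featureCounts, limma, DESeq2 and the build hg38. Which of them made the values, the strand setting and the handling of shared reads are not given in the sources used here. Values were whole multiples of 1 read (within 0.02) for part of the genes only, so no count model was run. The depth was estimated as the total divided by the value of 1 read (0.702 to 1.51).

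Values were taken as log2(value + 1) for the 17534 genes with a mean of at least 10. The model, with 1 mean for each group, used limma 3.58.1 (R 4.3.3) with eBayes and its trend (4 residual and 5.51 prior degrees of freedom, all 4 groups sharing 1 spread). The 7 contrasts were tested two-sided with Benjamini-Hochberg adjustment within each. A second fit replaced SMN1 and SMN2 by their sum. The fit was tested on simulated data. The alternatives were other scalings, pseudocounts and filters, eBayes without trend or with robust estimates, a block for the replicate number, a fit of only the groups compared, and each library left out.

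The members and lists were chosen with earlier results of these data known. Named are all 10 members, at most the 4 list genes with the smallest p per list and contrast, at most 2 uncalled genes per list, all locus neighbours and the 3 most alike genes. Of these the text describes mainly those that kept their call in every alternative. All 10 identifiers matched GENCODE 29, 3 with the same version. The promoters of SMN1 and SMN2 were not analysed here. Tables and plots were made with Python 3.11.15, pandas 2.3.3, numpy 2.4.6 and matplotlib 3.10.9.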

Additional observations from a re-analysis of the deposited data

How the results depend on the processing

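Each result was recomputed in 18 alternative settings (17 for the interaction, to which a fit of only the groups compared does not apply). The calls of GEMIN5, STRAP and the summed SMN level in combination against DMSO cells held in all 18. Over all genes, the number called ran over the settings from 2133 to 4619 for the combination against DMSO (4221 as reported), 481 to 1690 for RG3039 (1424) and 79 to 525 for decitabine (376). Upper-quartile scaling moved the median of all genes in combination against DMSO cells by 0.11. The number of complex genes called in combination against DMSO cells was 2 to 4 with 1 library left out, and 7 with the replicate block, which added SMN2 (adjusted p = 0.0243), GEMIN2 (0.0375) and DDX20 (0.0418). In RG3039 against DMSO cells, and in combination against RG3039 cells, the 1 call became 0 without the filter on low values, without the trend and with only the groups compared, and 0 to 1 with a library left out. In combination against decitabine cells the block gave 1 (SMN2, adjusted p = 0.0326). The sample titles number the replicates without saying whether the numbers pair the samples. Deviations of same-numbered libraries correlated at -0.0767 to 0.161 over the 6 group pairs, which can neither show nor exclude a pairing. Over all genes the block raised the calls for the combination against DMSO from 4221 to 4619. Calls changed by the block are therefore descriptions.

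For the assembly lists, the block gave 3 calls for decitabine against DMSO, 4 for RG3039 against DMSO, 10 for the combination against decitabine, 5 for the combination against RG3039 and 3 for decitabine against RG3039. Leaving out 1 library gave 0 to 4, 1 to 7, 0 to 6, 0 to 3 and 0 to 1 calls in the same order, and 13 to 24 for the combination against DMSO. Without the trend there were 12 for the combination against DMSO, 1 for RG3039 against DMSO and 0 in the last 3 comparisons of that order. With only the groups compared there was 1 for RG3039 against DMSO, 3 for the combination against decitabine and 0 for decitabine against RG3039. Without the filter there was 1 for the combination against decitabine and 0 against RG3039. Quantile normalization gave 8 for the combination against decitabine, and for decitabine against RG3039 it gave 2, as did upper-quartile scaling and robust estimates.

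Signs turned only in uncalled results. Leaving out 1 library gave log2 fold changes of -0.20 to 0.54 (SMN2), -0.60 to 0.10 (GEMIN2) and -0.0089 to 0.32 (GEMIN8) for decitabine against DMSO. It gave -1.16 to 0.25 (SMN2), -0.29 to 0.24 (DDX20) and -0.24 to 0.034 (GEMIN6) for RG3039 against DMSO. For the combination against DMSO it gave -0.39 to 0.16 (SNRPN) and -0.10 to 0.38 (NAIP). For the summed SMN level it gave -0.49 to 0.066 in decitabine against RG3039 cells and -0.41 to 0.14 in the interaction. DDX20 for RG3039 against DMSO was 0.015 under upper-quartile scaling and 0.026 under quantile normalization. For the combination against DMSO, COPRS was 0.049 and 0.075 under the same scalings, beside -0.06, and under quantile normalization SNRPN was 0.018 and NAIP -0.17. The cause of these shifts was not tested.

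With 2 wells a group, log2 fold changes had a median standard error of 0.322, and among the complex genes SMN2, SMN1, GEMIN2 and GEMIN7 have the widest intervals.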
